A study of Homo sapiens with 6 samples.

Results

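Immediate early genes are transcribed within minutes of a stimulus, from factors that are already present in the cell and without new protein synthesis. Growth factors, stress, and the handling of cultured cells such as dissociation or a change of medium are known stimuli. The Fos proteins (FOS, FOSB, FOSL1 and FOSL2) pair with the Jun proteins (JUN, JUNB and JUND) through a leucine zipper, and these pairs form AP-1, a transcription factor of proliferation, migration and stress responses in epithelial cells. EGR1 is a zinc finger factor induced by the same kinase cascades, and IER2 and IER3 are small proteins named for their early induction. The 10 genes described here are these 7 AP-1 genes with EGR1, IER2 and IER3. They were chosen by name, with earlier results of these data known, as the rows whose Ensembl identifier has one of these symbols in GENCODE release 29. All 10 were found among the 58735 genes counted, and all 10 passed the filter on low counts, which left 16561 genes. Since the choice was made with the contrast between the groups in view, the differences of these 10 genes are given as a description, without a test.

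The study asked how gene expression differed after HOXA3 was targeted in cells of the third pharyngeal pouch endoderm (3PPE) made from H9 cells, a line of human embryonic stem cells. RNA-seq was performed at day 9 on 3 cultures given a negative control siRNA (siControl, genotype labelled WT) and 3 given a HOXA3 siRNA (siHOXA3). Both groups had been kept for 5 days on mouse embryonic fibroblasts, differentiated with 100 ng/ml Activin A, 50 ng/ml WNT3A and 10 μM Y-27632, and then with 100 ng/ml Activin A and 0.5% B27. From day 4 both were reseeded on Matrigel with 0.5% B27, 1 μM retinoic acid, 10 μM SB431542, 20 ng/ml BMP4 and 2.5 μM IWP2. At day 7 both received their siRNA with a Lipofectamine reagent, and after 6 to 8 hours the medium was replaced with opti-MEM. The triplicates are described by the study as independent repeats. All libraries came from 1 cell line and 1 siRNA per group, so p-values measure the spread between these cultures. The 6 libraries held 14885355, 15171278 and 15191386 counts in siControl replicates 1, 2 and 3, and 14652931, 15282307 and 14117150 counts in siHOXA3 replicates 1, 2 and 3. Expression within a gene is given as CPM, counts scaled to the normalized library size. Where a library has 0 counts, a level of up to 3 counts, or 0.197 to 0.211 CPM, remains possible from counting error alone.

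HOXA3 itself, the target of the siRNA, had 248, 240 and 236 counts in the siControl libraries and 159, 199 and 220 counts in the siHOXA3 libraries. Its mean was 16.0 ± 0.606 CPM (SD, n = 3) in siControl and 13.2 ± 2.28 CPM in siHOXA3, and the groups overlapped. The log2 fold change was -0.27 (SE 0.157), with an adjusted p of 0.828 by edgeR's quasi-likelihood test. The library labelled siHOXA3 replicate 3 had 15.49 CPM of HOXA3, above the 15.46 CPM of siControl replicate 3 and below the 16.65 and 15.86 CPM of siControl replicates 1 and 2. Its scaled HOXA3 level thus lay inside the siControl range, against its label, although its 220 counts were below all siControl counts. Every direction below between the groups is a direction between libraries labelled siHOXA3 and siControl. In bulk RNA, fewer cells of a type and less RNA per cell cannot be told apart. siHOXA3 replicate 2 stood apart from the other libraries. Its counts differed from theirs by a chi-square of 27.8 to 33.8 per degree of freedom, whereas all other pairs of libraries differed by 4.80 to 11.6. For the 10 genes, and for counts of other genes that change, values without it are given below.

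The label of pouch endoderm was not borne out by its defining markers. Of 18 pouch and foregut endoderm markers, 8 had a mean above 1 CPM. FOXA2, SOX17 and FOXN1, factors of definitive endoderm and of thymic epithelium, had at most 2 counts in any library, FGF8 had none, and TBX1 had 0 to 10 counts. EPCAM, a surface marker of epithelial cells in general, had a mean of 286 CPM, and GATA6 and BMP4, which are also expressed outside endoderm, had 55.3 and 46.3 CPM. Of 12 amnion and trophoblast markers, 11 had a mean above 1 CPM, with IGFBP3 the most abundant at 3382 CPM and only CDX2 below 1 CPM. Of 10 mesenchyme and fibroblast markers, 9 were above 1 CPM, led by COL1A1 at 1432 CPM, and PRRX1 had no count. The 10 immediate early genes were thus measured in cells labelled 3PPE whose RNA held few transcripts of the defining endoderm factors.

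The stretches around the RefSeq start of 5 of these genes are shown because AP-1, CREB and serum response factor are classically tied to early induction. RefSeq promoters (GRCh38.p14, from 250 bases before to 50 bases after the start) were matched for 8 of the 10 genes, not for FOSL1 and IER3. RefSeq starts can differ from the starts of the gene spans used for counting, which are given below. The windows of JUN and FOSL2 lie wholly inside those spans, so their matches are not in front of the counted gene. Capitals mark TGACNTCA and TGACG in JUN and JUND, the CArG box bound by serum response factor and TGACG in EGR1, TGACG in FOS, and TGANTCA and TGACG in FOSL2, on either strand. JUN lies on the minus strand at chr1:58783998-58784297, JUND on the minus strand at chr19:18281573-18281872, EGR1 on the plus strand at chr5:138465229-138465528, FOS on the plus strand at chr14:75278578-75278877 and FOSL2 on the plus strand at chr2:28392608-28392907, and each is written along its own gene.
JUN: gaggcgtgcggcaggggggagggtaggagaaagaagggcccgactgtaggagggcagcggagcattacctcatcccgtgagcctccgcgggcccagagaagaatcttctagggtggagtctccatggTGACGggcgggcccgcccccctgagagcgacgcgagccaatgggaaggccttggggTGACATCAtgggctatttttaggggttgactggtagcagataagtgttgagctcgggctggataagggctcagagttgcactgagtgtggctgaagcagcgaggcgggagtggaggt
JUND: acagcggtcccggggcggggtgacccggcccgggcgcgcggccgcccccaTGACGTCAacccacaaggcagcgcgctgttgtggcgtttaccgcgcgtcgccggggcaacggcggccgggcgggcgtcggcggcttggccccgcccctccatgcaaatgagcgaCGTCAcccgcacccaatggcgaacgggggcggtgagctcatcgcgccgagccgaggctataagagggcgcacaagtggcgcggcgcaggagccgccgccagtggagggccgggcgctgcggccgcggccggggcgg
EGR1: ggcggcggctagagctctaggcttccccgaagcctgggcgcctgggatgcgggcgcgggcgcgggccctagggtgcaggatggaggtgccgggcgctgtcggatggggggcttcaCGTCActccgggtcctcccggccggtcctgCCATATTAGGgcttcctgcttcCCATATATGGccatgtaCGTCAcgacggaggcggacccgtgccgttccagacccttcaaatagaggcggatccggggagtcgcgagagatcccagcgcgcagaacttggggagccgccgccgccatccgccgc
FOS: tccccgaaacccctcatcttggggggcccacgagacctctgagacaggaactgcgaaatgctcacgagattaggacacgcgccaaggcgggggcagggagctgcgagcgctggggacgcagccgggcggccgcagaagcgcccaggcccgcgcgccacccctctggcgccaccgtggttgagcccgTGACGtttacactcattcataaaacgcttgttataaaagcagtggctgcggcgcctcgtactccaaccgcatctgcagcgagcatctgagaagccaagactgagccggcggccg
FOSL2: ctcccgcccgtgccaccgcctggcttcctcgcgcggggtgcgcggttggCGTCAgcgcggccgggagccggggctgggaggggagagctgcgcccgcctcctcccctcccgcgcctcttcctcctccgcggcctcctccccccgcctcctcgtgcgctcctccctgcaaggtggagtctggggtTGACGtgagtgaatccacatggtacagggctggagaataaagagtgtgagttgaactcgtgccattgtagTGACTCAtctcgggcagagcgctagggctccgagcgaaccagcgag

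JUN and JUND, the 2 Jun genes with the highest levels in these cells, were also the 2 of the 8 promoters with TGACNTCA, an 8-base AP-1 and CREB type sequence that 7.72% of the 35116 RefSeq promoters hold. JUN had it as TGACATCA at -67 and JUND as TGACGTCA at -200. Positions are counted to the first base of the match, with the RefSeq start as 0. The JUN match lies inside the gene span used for counting. Only FOSL2 held TGANTCA, the 7-base AP-1 sequence, as TGACTCA at 4, against 7.71% of all promoters. Within these windows EGR1 alone had the CArG box, with matches at -105 and -83, where 1.29% of all promoters have at least 1 match. Sequence farther upstream was not searched, so a CArG box of the other genes outside the window would be missed. All 8 promoters held TGACG, the CREB core that is also part of TGACGTCA in JUND, against 24.6% of all promoters. TATAAA was present in FOS at -33, in FOSB at -30 and in JUNB at -31, against 11.5% of all promoters. GGGCGG, the SP1 sequence, was found in 6 of 8 against 44.95%, and GCGNGGGCG, the EGR sequence, was found in EGR1 itself and no other of the 8, against 9.43%. A match is a run of letters and says nothing of binding in these cells.

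These genes were short, with few exons and a high GC content. Their median span was 3683 bases against 34272 bases for the 13433 protein-coding genes tested, and their median GC content was 59.1% against 50.5%. JUN (ENSG00000177606, chromosome 1 from 58780788 to 58784327, minus strand) and JUNB (ENSG00000171223, chromosome 19 from 12791496 to 12793315, plus strand) have 1 exon, which is true of 1.76% of the genes tested. JUND (ENSG00000130522, chromosome 19 from 18279760 to 18281622, minus strand) was the richest in GC at 69.7%, and FOSL2 (ENSG00000075426, chromosome 2 from 28392448 to 28417312, plus strand) was the longest and the poorest in GC at 50.8%. FOS (ENSG00000170345) spans chromosome 14 from 75278774 to 75282230 on the plus strand, FOSB (ENSG00000125740) chromosome 19 from 45467995 to 45475179 on the plus strand, and FOSL1 (ENSG00000175592) chromosome 11 from 65892049 to 65900573 on the minus strand. EGR1 (ENSG00000120738) lies on chromosome 5 from 138465490 to 138469315, plus strand. IER2 (ENSG00000160888) lies on chromosome 19 from 13150415 to 13154908, plus strand, and IER3 (ENSG00000137331) on chromosome 6 from 30743199 to 30744554, minus strand. Positions are those of GENCODE 29 on GRCh38, and reads were counted over the whole gene. The counts of JUNB, IER2 and IER3 are uncertain, since each shares exon bases with a gene on the opposite strand (HOOK2, AC011446.2 and IER3-AS1) and strand-specific counting was not stated. FOSL1 shared 2.91% of its 50-base stretches with FOSL1P1, a pseudogene.

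AU-rich elements in the 3′ UTR mark many short-lived early transcripts, and their core is ATTTA. This core was present in the annotated 3′ UTR of 9 of the 10 genes (90%), against 73.6% of 13358 protein-coding genes tested. Per length the median was 1.66 ATTTA per kb of 3′ UTR in the 10 genes and 1.68 in the protein-coding genes, so the group as a whole did not stand apart in density. IER3 had 6 (6.64 per kb) and FOS had 5 (6.203 per kb), whereas JUND and EGR1 had 1 each and IER2 had none.

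Per length, the Jun family was far more abundant than the Fos family in every library. Levels were compared between genes in TPM, computed here from the counts and the exonic length of each gene and summing to the same total in each library. The summed Jun family level was 481, 443 and 367 TPM in the siControl libraries and 549, 633 and 554 TPM in the siHOXA3 libraries. The summed Fos family level was 37.8, 38.03 and 30.7 TPM in siControl and 43.9, 30.7 and 37.3 TPM in siHOXA3. The Jun sum was therefore 12.7, 11.6 and 11.9 times the Fos sum in siControl, and 12.5, 20.6 and 14.9 times in siHOXA3. The highest ratio was that of siHOXA3 replicate 2, which had the highest Jun sum and the lowest Fos sum of its group. All 3 siHOXA3 libraries had a higher Jun sum than any siControl library (means 430.3 ± 58.2 and 579 ± 47.3 TPM, a ratio of 1.35), while the Fos sums overlapped (35.5 ± 4.15 and 37.3 ± 6.60 TPM).

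**Figure D1:**
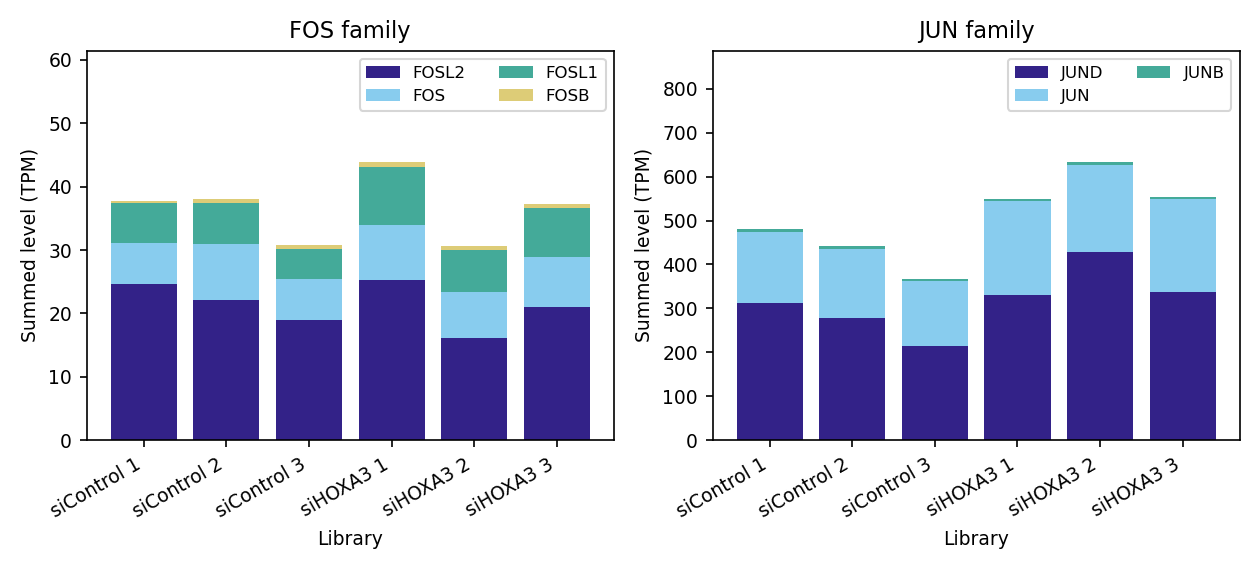
Summed level of the Fos family (left) and the Jun family (right) in each of the 6 libraries, in TPM, stacked by gene with linear axes from 0 that differ between the panels. FOSL2 and JUND form the largest share of their family in every library, and the Jun sums of siHOXA3 (549 to 633 TPM) lie above those of siControl (367 to 481 TPM).

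Each family was led by 1 gene, and neither was led by the classic early member FOS or JUN. JUND, the Jun protein that is known for steady expression and for restraining proliferation, made up 62.4% of the Jun family level on average over the 6 libraries, JUN 36.4% and JUNB 1.19%. FOSL2, a Fos protein of slower kinetics, made up 58.7% of the Fos family level, with a range of 52.7% to 65.3%. FOS had 21.0%, FOSL1 18.8% and FOSB 1.57% of that level. The FOSL1 share was 16.4 ± 0.819% in siControl and 21.1 ± 0.556% in siHOXA3, while the FOSL2 share was 61.7 ± 3.61% and 55.6 ± 2.63%. FOSL1 thus differed between the groups in its share as well as in its level, both of which rest on the same counts.

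In order of the mean TPM over the 6 libraries, the genes were JUND (317), JUN (182), IER3 (35.0), IER2 (33.0), FOSL2 (21.4), EGR1 (8.39), FOS (7.59), FOSL1 (6.86), JUNB (5.92) and FOSB (0.563). JUND was above JUN in 6 of 6 libraries, although its lowest level, 213.7 TPM, was close to the highest JUN level, 212.7 TPM. JUN was above IER3, IER2 above FOSL2, FOSL2 above EGR1 and JUNB above FOSB in 6 of 6 libraries without overlap. The other neighbours did not differ beyond their spread. IER3 exceeded IER2 in 3 of 6 libraries, EGR1 exceeded FOS in 4, FOS exceeded FOSL1 in 5 and FOSL1 exceeded JUNB in 4. By mean TPM, JUND ranked 352 and JUN 719 of the 58735 genes. FOS, EGR1, FOSL1 and JUNB, which are strongly inducible in many cells, were between ranks 10923 and 12114.

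The comparison of siHOXA3 with siControl asked whether these genes moved with the siRNA against HOXA3. JUN, JUND and FOSL1 were higher in all 3 siHOXA3 libraries than in any siControl library, by 1.38, 1.42 and 1.38 times in mean CPM. For the other 7 genes the groups overlapped. Of the 10 log2 fold changes 9 were above 0 and 1 (FOSL2) was below, with a median of 0.15 against 0.0019 over all 16561 genes tested. Among all genes tested, 6.41% were higher in every siHOXA3 library than in any siControl library and 6.88% were lower in every one, 1061 and 1139 genes. This split depended on the scaling, with 1290 genes higher and 915 lower in every siHOXA3 library after upper-quartile normalization. The 10 genes were chosen from this contrast, so nothing is read from their count of 3 against that share. By edgeR, 6.36% of the genes tested had an unadjusted p under 0.05, and after adjustment 1 gene (0.00604%), BOLA2B, which is not one of the 10, was under that threshold. BOLA2B is a duplicated gene copy, and its count is uncertain because the treatment of multi-mapped reads is not given.

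**Figure D2:**
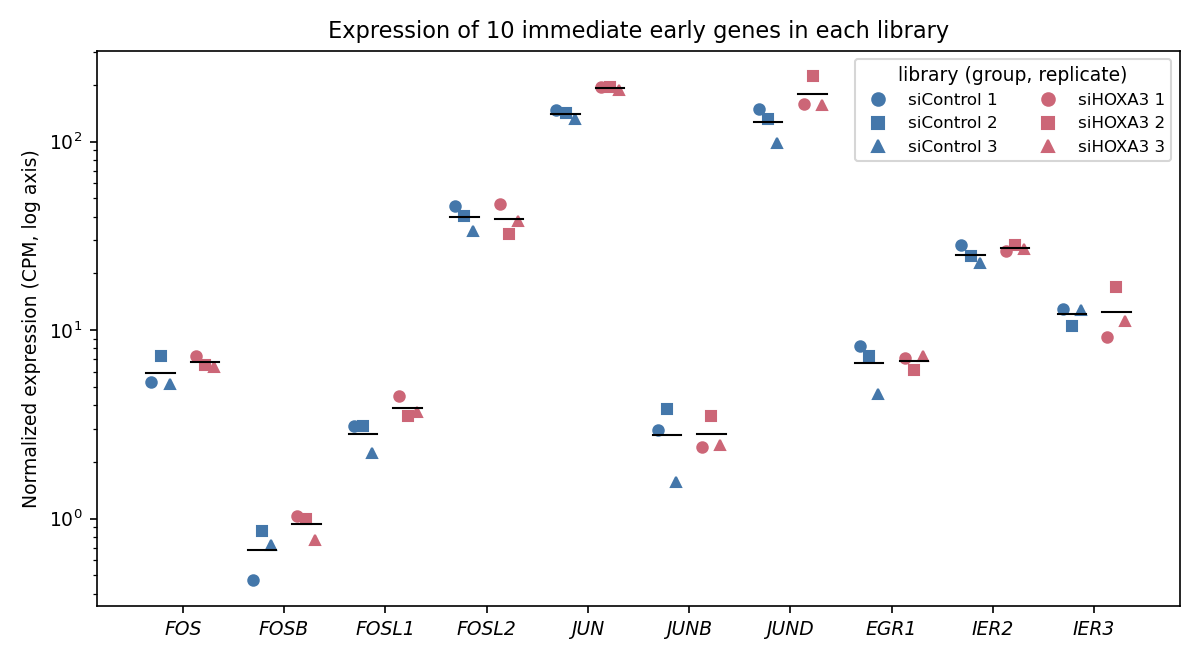
Normalized expression (CPM, log axis) of the 10 genes in each library, with siControl in blue and siHOXA3 in red, a marker shape for each replicate number and a black line at each group mean. The red and blue points are separate for FOSL1, JUN and JUND and interleave for the other 7 genes, and the levels run from under 1 CPM (FOSB) to over 100 CPM (JUN, JUND).

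Among the Fos genes, FOSL1 (also called FRA1), a Fos protein tied to cell migration and to invasive epithelial cells, was the one whose groups were separate. FOSL1 had 46, 47 and 34 counts in siControl (3.09, 3.11 and 2.23 CPM) and 65, 53 and 52 counts in siHOXA3 (4.47, 3.52 and 3.66 CPM). All siHOXA3 values were above 3.11 CPM, the highest siControl value, and siControl replicate 3 was lowest. The means were 2.81 ± 0.502 and 3.89 ± 0.510 CPM, and the log2 fold change was 0.47 (SE 0.250). At this level counting error alone gives a CV of 14.2%, close to the observed 17.9% in siControl and 13.1% in siHOXA3.

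FOS, the founding member of the family, which cannot pair with itself, had 79, 111 and 79 counts in siControl (5.30, 7.34 and 5.17 CPM) and 106, 98 and 91 counts in siHOXA3 (7.29, 6.52 and 6.41 CPM). Its highest value was that of siControl replicate 2, above all siHOXA3 values, so the groups overlapped. The means were 5.94 ± 1.21 and 6.74 ± 0.479 CPM, with a log2 fold change of 0.18 (SE 0.203). FOSB, known for its long-lived splice form in neurons, was near the limit of detection, with 7, 13 and 11 counts in siControl and 15, 15 and 11 counts in siHOXA3. Its 0.683 ± 0.197 and 0.934 ± 0.139 CPM overlapped, with a log2 fold change of 0.45 (SE 0.435). Counting error alone gives FOSB a CV of 28.9%, where 28.9% was observed in siControl and 14.9% in siHOXA3. Whether a difference of this size could be detected at this depth was not tested.

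FOSL2 (also called FRA2), the most abundant Fos gene, did not follow FOSL1. It had 45.3, 40.4 and 33.7 CPM in siControl and 46.8, 32.3 and 37.8 CPM in siHOXA3. Its highest and its lowest value were both in siHOXA3, in replicates 1 and 2. The means were 39.8 ± 5.85 and 39.0 ± 7.32 CPM, with a log2 fold change of -0.03 (SE 0.156). The 4 Fos genes thus held 1 with separate groups and 3 with overlapping groups.

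JUN, the main partner of Fos proteins in AP-1, had 2196, 2148 and 2003 counts in siControl (147, 142 and 131 CPM) and 2831, 2939 and 2674 counts in siHOXA3 (194.6, 195.4 and 188 CPM). The lowest siHOXA3 value lay well above the highest siControl value, and under TMM scaling the 3 libraries of siHOXA3 were within a CV of 2.02%, where counting error alone gives 2.01%. With the GC and length offset they were further apart, at 187, 222 and 179 CPM, and still above the 140.1, 142 and 133 CPM of siControl. The means were 140.2 ± 8.25 and 193 ± 3.90 CPM, and the log2 fold change was 0.46 (SE 0.0948). Of all genes tested, 6.19% had a larger log2 fold change.

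JUND had 2222, 1996 and 1506 counts in siControl (149, 132 and 98.7 CPM) and 2317, 3355 and 2235 counts in siHOXA3 (159, 223 and 157 CPM). The groups were separate but close, since the library labelled siHOXA3 replicate 3 lay just above siControl replicate 1, and siHOXA3 replicate 2 was far above the rest. The means were 127 ± 25.7 and 179.9 ± 37.4 CPM, with a log2 fold change of 0.51 (SE 0.171). The CV within the groups was 20.3% and 20.8%, far above the 2.10% of counting error, so depth did not limit this gene. JUNB, a Jun protein that often acts against JUN, had 2.95, 3.83 and 1.57 CPM in siControl and 2.41, 3.52 and 2.46 CPM in siHOXA3. Its groups overlapped fully, with means of 2.79 ± 1.14 and 2.80 ± 0.629 CPM and a log2 fold change of 0.01 (SE 0.340).

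The libraries also differed in how their counts followed GC content and transcript length, which bears on JUND as the gene richest in GC. Across the genes tested, the Spearman correlation of a library's deviation from the gene mean with GC content was 0.160, -0.116 and -0.271 in the siControl libraries and 0.0966, 0.0116 and 0.147 in the siHOXA3 libraries. The correlation with length was between 0.0138 and 0.0760 in 5 libraries and -0.154 in siHOXA3 replicate 2. For a gene with the length and GC content of JUND, the smooth trend was -0.26 on the log2 scale in siControl replicate 3 and 0.18 in siHOXA3 replicate 2, the libraries where JUND was lowest and highest. With this trend put into the offset, JUND had 146, 135 and 118 CPM in siControl and 159, 198 and 148 CPM in siHOXA3, and its log2 fold change was 0.34 in place of 0.51. JUN, for which the trend was -0.18 in siHOXA3 replicate 2, had 140.1, 142.1 and 133 CPM and 187, 222 and 179 CPM, with a log2 fold change of 0.50. FOSL1 had 3.01, 3.16 and 2.36 CPM and 4.44, 3.43 and 3.59 CPM, with 0.42. The groups of these 3 genes were separate under both scalings, and the other 7 overlapped under both.

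**Figure D3:**
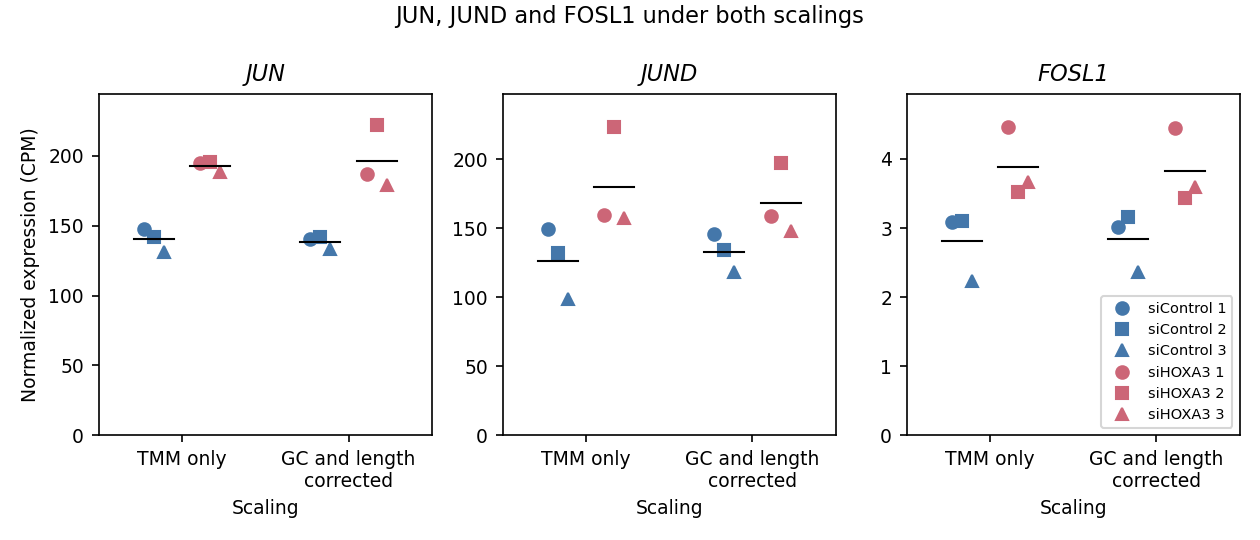
Normalized expression (CPM, linear axes from 0) of JUN, JUND and FOSL1 in the 6 libraries, under TMM scaling only and with the GC and length trend of each library in the offset, with a black line at each group mean. Under both scalings the siHOXA3 points (red) lie above the siControl points (blue), and the distance between the JUND means is smaller after correction (log2 fold change 0.34 against 0.51).

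The groups overlapped for EGR1, IER2 and IER3. EGR1, the zinc finger factor with CArG boxes in its promoter, had 8.26, 7.27 and 4.59 CPM in siControl and 7.15, 6.12 and 7.32 CPM in siHOXA3. Both its highest and its lowest value were in siControl, with means of 6.70 ± 1.90 and 6.86 ± 0.652 CPM and a log2 fold change of 0.03 (SE 0.231). IER2, a nuclear protein of early induction, had 28.2, 24.8 and 22.6 CPM and 26.3, 28.4 and 26.97 CPM. Its siHOXA3 values lay inside a narrow range at the upper end of the siControl values, with a log2 fold change of 0.11 (SE 0.125). IER3, also called IEX-1, a regulator of cell survival under stress, had 13.0, 10.5 and 12.8 CPM and 9.14, 16.96 and 11.2 CPM. Its highest and its lowest value both lay in siHOXA3, in replicates 2 and 1, and the log2 fold change was 0.04 (SE 0.219).

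The libraries in which a gene was high or low differed between the genes, except that siControl replicate 3 was low for most of them. This library was the lowest of its group for 8 of the 10 genes and the highest for none, while 35.7% of all genes tested had their lowest and 35.6% their highest siControl value there. JUND (-0.59), JUNB (-0.53), EGR1 (-0.46) and FOSL1 (-0.41) were the genes farthest below their mean over the 6 libraries in that library, on the log2(CPM + 1) scale. In siHOXA3 replicate 2, JUND (0.58) and IER3 (0.46) were the farthest above their mean, while FOSL2 (-0.26) was below. That library was the highest of its group for 5 of the 10 genes and the lowest for 3, against 41.2% and 40.9% of all genes. JUN deviated by -0.32 to -0.16 in the siControl libraries and by 0.20 to 0.25 in the siHOXA3 libraries, so no library was close to its mean.

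**Figure D4:**
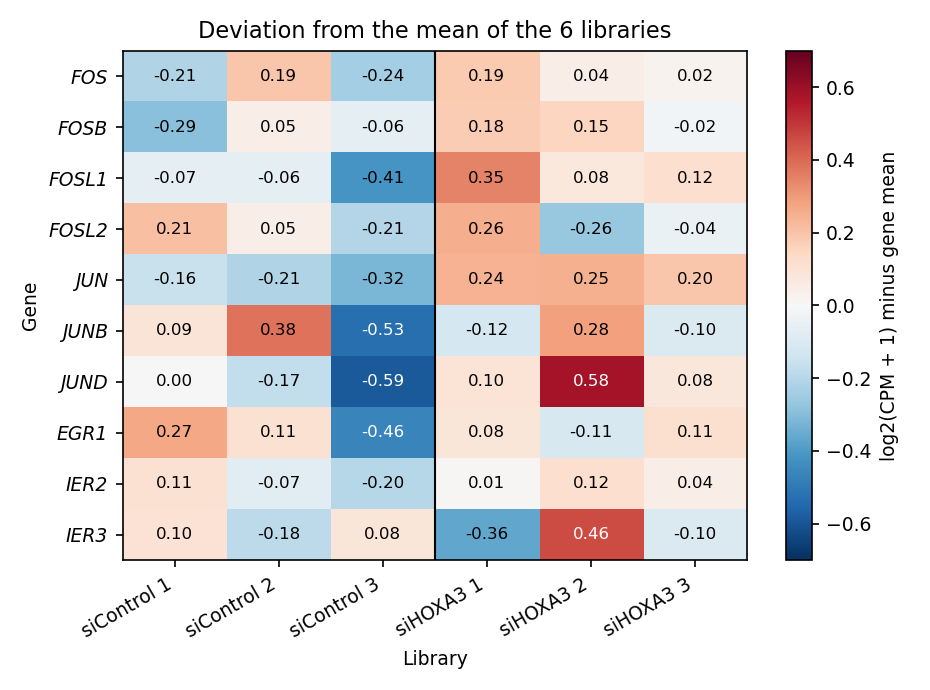
Deviation of each of the 10 genes (rows) in each library (columns) from its mean over the 6 libraries, on the log2(CPM + 1) scale, with red above and blue below the mean and the value printed in each cell. The siControl replicate 3 column is blue for every gene except IER3 (0.08), and the JUN row is blue in all siControl and red in all siHOXA3 libraries.

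Variation between replicates was estimated by edgeR as the biological coefficient of variation (BCV), which takes counting error out, here under TMM scaling. Its median was 16.8% over the 10 genes and 13.8% over all genes tested. JUN had 9.47%, below the 11.5% of genes at its level, and 4.32% of the genes tested had a lower value. JUND had 15.3% where the same trend gives 11.5%, and JUNB had 26.2%, above that of 85.6% of genes. The others were IER2 with 10.8%, FOSL2 with 13.6%, FOS with 15.9%, FOSL1 with 17.8%, IER3 with 18.3%, EGR1 with 18.6% and FOSB with 23.4%. JUN and JUND thus had a like difference in mean CPM with a different spread under this scaling, which their standard errors of 0.0948 and 0.171 on the log2 scale reflect.

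The differences were recomputed without siHOXA3 replicate 2 and without each other library. Without siHOXA3 replicate 2, the log2 fold change was 0.45 for JUN, 0.32 for JUND, 0.53 for FOSL1, 0.20 for FOS, 0.39 for FOSB and 0.08 for IER2. It was 0.11 for EGR1, 0.09 for FOSL2, -0.20 for JUNB and -0.26 for IER3, so the sign of FOSL2, JUNB and IER3 turned. JUND was the gene of the 3 separate ones that moved most, from 0.51 to 0.32, when this library was left out. Without siControl replicate 3, JUN was at 0.41, FOSL1 at 0.33, EGR1 at -0.18 and JUNB at -0.28. Over 15 alternative settings the log2 fold change of JUN ranged from 0.41 to 0.50, that of JUND from 0.32 to 0.64 and that of FOSL1 from 0.33 to 0.55. JUN, JUND, FOSL1, FOS, FOSB and IER2 had no change of sign, although FOSB had 14 such settings. FOSL2 changed sign in 5 of 15, JUNB in 6, IER3 in 4 and EGR1 in 2.

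The other immediate early genes also lay on both sides of 0. Of 42 listed genes, 35 passed the filter, 20 were higher and 15 lower in siHOXA3, and their median log2 fold change was 0.10 against 0.0019 over all genes. After adjustment none was under 0.05, by edgeR's quasi-likelihood test with the filter or by DESeq2, and 1 gene, IER5L, was with no filter. At an unadjusted p under 0.05, 4 were higher and 2 were lower by edgeR, where 3.79% and 2.57% of all genes tested were. The groups were separate for 4 genes upward and 4 downward, where 6.41% and 6.88% of all genes were. Without siControl replicate 3, 1 gene was higher and 2 were lower at that threshold and the median was 0.0050, where 671 of all 17145 genes tested passed. Without siHOXA3 replicate 2, 4 were higher and 1 lower and the median was 0.0082, where 1828 of all 17144 genes tested passed.

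The 4 genes higher at an unadjusted p under 0.05 have different roles. PPP1R15A (GADD34), which brings a phosphatase to the translation factor eIF2 in the stress response, was at 22.7, 19.3 and 19.5 CPM in siControl and 26.7, 27.6 and 27.5 CPM in siHOXA3. Its log2 fold change was 0.41 (SE 0.122, unadjusted p = 0.00594, adjusted p = 0.588 by edgeR). CCN1 (CYR61), a secreted matrix protein and target of YAP, was at 69.3 ± 4.31 and 87.6 ± 11.9 CPM, with a log2 fold change of 0.34 (adjusted p = 0.7201 by edgeR). IER5L and IER5, relatives of IER2, were at 38.2 ± 8.004 and 54.2 ± 10.9 CPM and at 28.1 ± 1.61 and 37.2 ± 8.08 CPM. Their log2 fold changes were 0.51 and 0.41, with adjusted p-values of 0.7201 and 0.725 by edgeR, and with no filter the adjusted p of IER5L was 0.0435. Its log2 fold change was 0.33 without siHOXA3 replicate 2. The groups overlapped for IER5, which was at 27.9 CPM in the library labelled siHOXA3 replicate 3 and 29.3 CPM in siControl replicate 1. Like JUND, IER5L had its lowest value in siControl replicate 3 (28.95 CPM) and its highest in siHOXA3 replicate 2 (66.7 CPM).

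BTG2, an antiproliferative gene, and KLF10, a factor induced by TGF-beta, were the 2 genes lower at that threshold. BTG2 was at 70.6, 71.0 and 70.4 CPM in siControl and 53.4, 60.8 and 56.5 CPM in siHOXA3, with a log2 fold change of -0.31 (SE 0.0986, adjusted p = 0.662 by edgeR). KLF10 was at 12.3 ± 1.28 and 9.56 ± 1.14 CPM, with -0.36 (adjusted p = 0.7805 by edgeR). ATF3, a bZIP factor of the stress response that pairs with Jun proteins, and SOCS3, a feedback inhibitor of cytokine signalling, were also lower in every siHOXA3 library, at 45.7 and 40.6 CPM and at 33.3 and 28.7 CPM. CCN2, a matrix protein related to CCN1, was higher in every one, at 14.1 ± 1.03 and 17.2 ± 1.42 CPM, with a log2 fold change of 0.29 (adjusted p = 0.781 by edgeR). The most abundant of the list were MCL1, an inhibitor of apoptosis, at 274 CPM, CITED2, a transcriptional coregulator, at 192 CPM and PLK2, a kinase, at 171 CPM, with log2 fold changes of -0.03, 0.14 and 0.14. Without siHOXA3 replicate 2, those of CITED2 and PLK2 were 0.024 and 0.069. EGR2, EGR3, EGR4, NPAS4, ARC, KLF2 and DUSP2, among them genes best known from neurons, were left out by the filter, with 0 to 6 counts in each library.

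**Figure D5:**
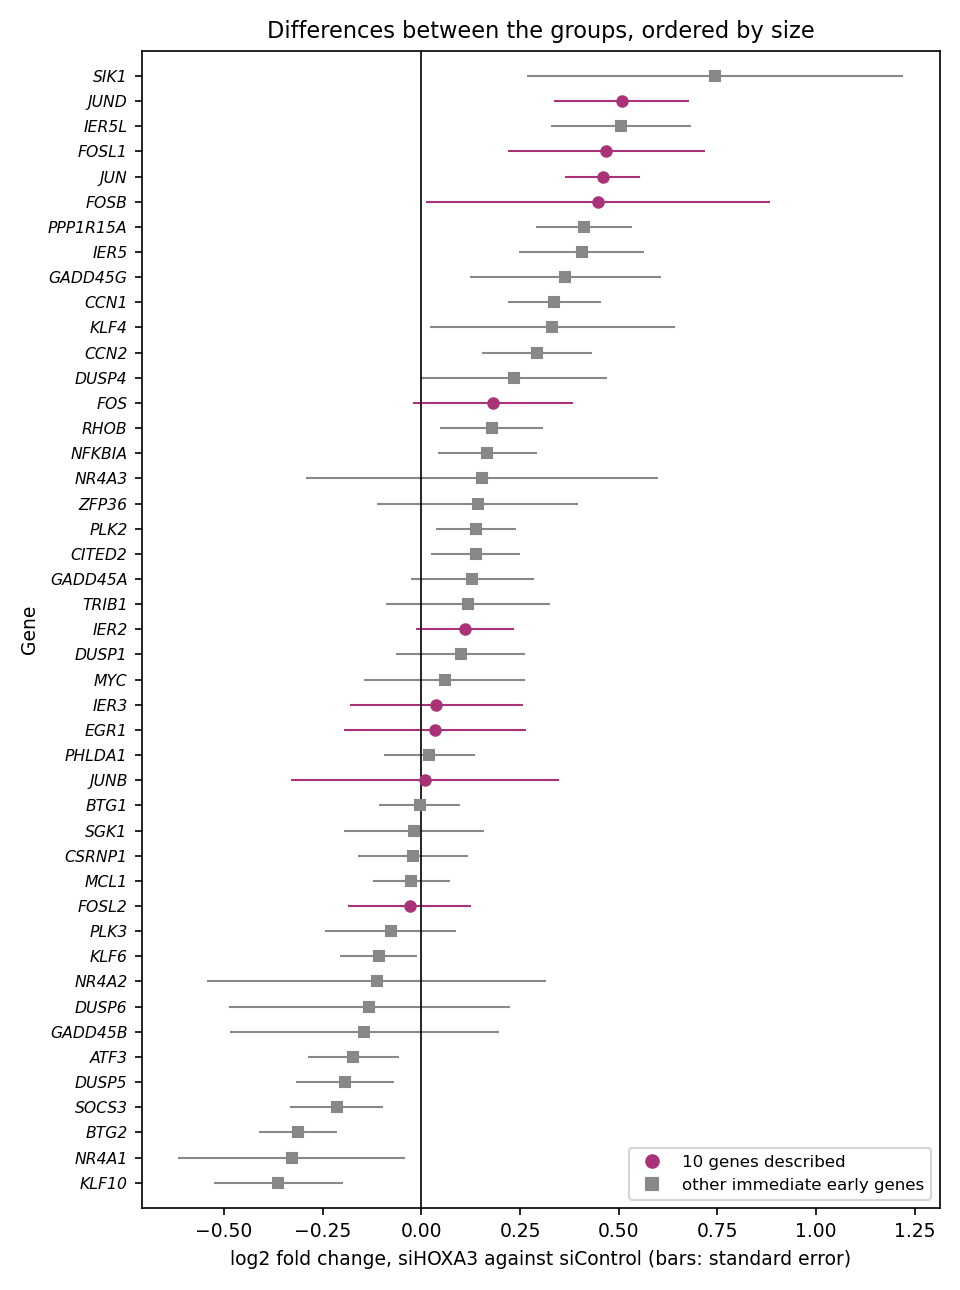
Log2 fold change of siHOXA3 against siControl (points) with its standard error (bars) for the 10 genes (purple circles) and the 35 other immediate early genes that were tested (grey squares), ordered by size. JUND, FOSL1, JUN and FOSB lie among the highest values and FOSL2, JUNB, EGR1 and IER3 lie near 0, and none of the grey genes had an adjusted p under 0.05.

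Among the kinases and factors that act upstream of these genes, none had an adjusted p under 0.05, and none had an unadjusted p under 0.05 in the edgeR fit of all 6 libraries with TMM, the filter and no further term, or by DESeq2. All 26 listed were tested, and 11 were higher and 15 lower. At an unadjusted p under 0.05, 3 were higher and 1 lower with limma-voom and sample quality weights, 3 were higher and 2 lower without siHOXA3 replicate 2, 2 were higher without siControl replicate 1, 1 was higher with no filter, and 1 was lower with the replicate block and the GC and length offset. Among all genes tested, 1053 of 16561 passed this threshold in the first edgeR fit, 2206 of 16561 with limma-voom and 1862 of 34513 with no filter. The block with the GC and length offset gave 1187. Leaving 1 library out gave 643 to 1828, the highest without siHOXA3 replicate 2. The median log2 fold change was -0.0078. RPS6KA3, a kinase that phosphorylates CREB, was at 140.1 CPM and MAPK14 (p38 alpha), a stress kinase, at 127 CPM. For the other bZIP genes that can pair with AP-1 proteins, 11 of 15 were tested, with a median of -0.034, and for the 13 genes of RNA and protein turnover the median was -0.0092. By the same edgeR fit and by DESeq2 none of either list had an unadjusted p under 0.05, and at most 1 gene of each did under any other alternative, among them 1 higher turnover gene with no filter and 1 with the GC and length offset. ATF4 (328 CPM), NFE2L1 (175 CPM) and NFE2L2 (87.6 CPM) were the most abundant partners. ZFP36L2 (444 CPM), which binds AU-rich elements, CNOT1 (341.7 CPM) and KHSRP (341.7 CPM) led the turnover list.

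Genes known as AP-1 targets in other cells lay on both sides of 0. Of 20 listed, 15 were tested, 6 were higher and 9 lower, and the median log2 fold change was -0.011. This median was -0.143 without siHOXA3 replicate 2 and 0.072 without siHOXA3 replicate 3. At an unadjusted p under 0.05 by edgeR, 1 gene (MMP9) was higher and 2 were lower, MT2A among them, where 3.79% and 2.57% of all genes tested were. None had an adjusted p under 0.05. Without siHOXA3 replicate 2, 2 were higher and 3 lower at the unadjusted threshold, which 1828 of all 17144 genes tested passed in that fit. MMP9, a matrix protease, was at 1.28, 2.51 and 1.51 CPM in siControl and 4.06, 3.46 and 2.61 CPM in siHOXA3, with a log2 fold change of 0.93 (SE 0.325, adjusted p = 0.7201 by edgeR). All 3 siHOXA3 values of MMP9 were above the highest siControl value, at under 5 CPM in each library.

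MT2A, a metallothionein, was at 51.6, 22.3 and 19.8 CPM in siControl and 8.73, 8.31 and 4.65 CPM in siHOXA3. Its log2 fold change was -2.11 (SE 0.358, adjusted p = 0.416 by edgeR), and siControl replicate 1 was more than double any other library. Without siControl replicate 1 it was -1.54. DESeq2 gave MT2A an adjusted p of 0.0310 and limma-voom one of 0.0346, while edgeR gave 0.0019 with a replicate block and 0.00546 with the block and the GC and length offset. The call thus depended on both the tool and the design, and over all alternatives its adjusted p ranged from 0.0019 to 0.761. KRT18 (1484 CPM), a keratin with many processed copies in the genome and hence an uncertain count, EZR (564 CPM) and GJA1 (185 CPM) were the most abundant of the list.

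Heat shock genes, which mark protein stress, and markers of other cell types were set beside these values. Of 12 heat shock genes, 6 were higher and 6 lower, with a median of -0.0019. HSPB1, a small heat shock protein, was at 42.9 ± 7.46 and 59.6 ± 13.7 CPM, with a log2 fold change of 0.47 (adjusted p = 0.7201 by edgeR). It was the 1 gene of the list with an unadjusted p under 0.05, but its groups overlapped, siHOXA3 replicate 2 was highest at 75.3 CPM, and without that library the log2 fold change was 0.27. HSPA1A, an inducible heat shock protein whose near-identical copy HSPA1B makes its count uncertain, was the 1 gene of the list with separate groups, at 7.38, 8.33 and 6.03 CPM in siControl and 11.5, 8.71 and 8.87 CPM in siHOXA3 (log2 fold change 0.42, unadjusted p = 0.0524, adjusted p = 0.781 by edgeR). With all libraries, 3.79% of all genes tested were higher and 2.57% lower at the unadjusted threshold, and 6.41% were higher in every siHOXA3 library. Without siHOXA3 replicate 2, 2 heat shock genes were higher and 3 lower at that threshold, which 1828 of all 17144 genes tested passed. The median of the heat shock genes was then -0.084. HSP90AB1 (1889 CPM), HSP90AA1 (1736 CPM) and HSPA8 (1403 CPM), which have similar copies in the genome, were the most abundant. The summed heat shock level was 7198, 7638 and 7398 CPM in siControl and 6763, 8411 and 6740.2 CPM in siHOXA3, highest in siHOXA3 replicate 2. The summed level of the 10 immediate early genes was 403, 372 and 313 CPM in siControl and 458, 517 and 442 CPM in siHOXA3, also highest in that library. Without JUN these sums overlapped, at 255.8, 229.995 and 182.04 CPM and at 263.9, 321 and 254 CPM.

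The summed amnion and trophoblast markers were at 6029.96, 6349.8 and 6545.5 CPM in siControl and 6563, 7258 and 7043 CPM in siHOXA3. The siHOXA3 sums were above the siControl sums with IGFBP3, which alone was at 2938, 3190 and 3223 CPM and at 3377, 3825 and 3736 CPM. Without IGFBP3 the sums overlapped, at 3092, 3160 and 3323 CPM and at 3186, 3433 and 3307 CPM. Among these markers, TFAP2A was the 1 gene with an unadjusted p under 0.05 by edgeR (237 ± 21.0 and 278 ± 8.19 CPM, log2 fold change 0.23, adjusted p = 0.781), where 3.79% of all genes tested were higher and 2.57% lower. Without siHOXA3 replicate 2, 3 of these markers were higher and 2 lower at that threshold, which 1828 of all 17144 genes tested passed. IGFBP3, TFAP2A and GATA3 (321, 293 and 259 CPM in siControl and 332, 326 and 328 CPM in siHOXA3) were higher in every siHOXA3 library. These were 3 of the 11 tested in this list, where 6.41% of all genes tested were higher in every one. The mesenchyme and fibroblast markers summed to 4749, 4948 and 4784 CPM and to 4835, 5339 and 5366 CPM, with overlap. VIM (250.2 ± 20.1 and 353 ± 71.1 CPM, log2 fold change 0.50, adjusted p = 0.561) and DCN (28.0 ± 5.45 and 38.8 ± 10.3 CPM, 0.47, adjusted p = 0.761) were the 2 of 9 tested with an unadjusted p under 0.05 by edgeR, both higher, beside 3.79% higher and 2.57% lower among all genes tested. Without siHOXA3 replicate 2, 4 were higher and 1 lower, beside the same 1828 of 17144 genes, and the log2 fold change of VIM was 0.32. With no filter, VIM had an adjusted p of 0.0165 by edgeR. VIM and COL1A2, a collagen chain, were higher in every siHOXA3 library, COL1A2 at 978 ± 47.1 and 1111 ± 38.04 CPM. They were 2 of the 9 tested in this list, beside the same 6.41% of all genes tested. The pluripotency markers summed to 1257, 1289 and 1312 CPM and to 1414, 1474 and 1318 CPM. The siHOXA3 sums were above the siControl sums with LIN28A, and overlapped them without it, at 221, 239.98 and 249 CPM and at 240.01, 279 and 239.9 CPM. LIN28A, which led the list, and POU5F1 (4.77, 5.75 and 5.90 CPM in siControl and 6.26, 8.51 and 6.34 CPM in siHOXA3) were higher in every siHOXA3 library, with log2 fold changes of 0.13 and 0.36, and neither had an unadjusted p under 0.05 by edgeR. They were 2 of the 4 pluripotency markers tested, beside the same 6.41% of all genes tested. NANOG, PRDM14 and TDGF1 had at most 4 counts. Pouch and foregut endoderm markers summed to 937, 951 and 989 CPM and to 1022, 987 and 962 CPM, with overlap. The part of these cell types in the differences of JUN, JUND and FOSL1 was not tested.

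Neural markers other than NES (82.6, 66.8 and 64.6 CPM in siControl; 94.8, 77.7 and 75.2 CPM in siHOXA3) were below 1 CPM on average. Endothelial and blood markers summed to 130, 122 and 117 CPM and to 114, 84.3 and 125 CPM, led by KDR, with PECAM1, PTPRC and CD34 at 0 counts in all libraries. CDH5, an endothelial cadherin, was at 22.04 and 19.7 CPM on average in siControl and siHOXA3.

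The genes with the most similar profile over the 6 libraries were sought for FOS, JUN and EGR1 among 11518 genes with a mean of at least 5 CPM, by the root mean square difference of the centred log2(CPM + 1) values. For JUN they were GAS1 (0.0459), SLC2A4RG, SKIDA1, TAF10 and SMIM10L2B (0.0625). GAS1 was at 32.2, 32.5 and 30.1 CPM in siControl and 41.0, 44.6 and 41.8 CPM in siHOXA3. For FOS they were SLC29A4 (0.0404), ZNF394, LIX1, KLHL28 and RWDD2B (0.0635), which like FOS were low in siControl replicates 1 and 3. For EGR1 they were ZNF385A (0.0425), ZNF316, NCDN, ZNF70 and MT-ND1 (0.0706), which shared its low value in siControl replicate 3. No gene of the list of other immediate early genes was among these 15 nearest profiles. FOS, JUN, EGR1 and the rest of the group described here were not candidates, so the search cannot tell whether their profiles resemble one another.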

How the data were processed

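RNA-seq libraries of 3 siControl and 3 siHOXA3 samples were grouped by their labels. The authors deposited 1 table of raw counts, with the number of reads on each gene in each library as whole numbers without normalization. The aligner, the counter, strand use and the treatment of multi-mapped reads are not given in the sources used here. The submitters' processing notes name the mouse builds GRCm38 and mm10, while all gene identifiers are human and were found in GENCODE 29 on GRCh38. No column was pooled, and 0 columns were left out. The labels name both the LM-Seq protocol and a SMARTER kit.

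Groups were compared with edgeR 4.0.16 under R 4.3.3 (filterByExpr, TMM, robust quasi-likelihood fit, two-sided test, Benjamini-Hochberg adjustment over 16561 genes). CPM and TPM were computed here from the deposited counts. Log2 fold changes are siHOXA3 against siControl. The 10 genes and all lists were chosen with earlier results of these data known. Named genes were the 10, HOXA3, every gene with an adjusted p under 0.05, from each list the genes with an unadjusted p under 0.05 (up to 6) and the 3 most abundant, and the 5 nearest profiles of FOS, JUN and EGR1. ATF3, SOCS3, CCN2, POU5F1, HSPA1A, GATA3, single marker genes at or near 0 and other genes outside this rule were chosen after their values were seen. Single values of a few listed genes are not reported here. Alternatives were DESeq2 1.42.0 (the tool of the study), upper-quartile and library size scaling, no filter, a minimum of CPM 1 in 3 libraries, a replicate block, limma-voom (limma 3.58.1), a GC and length offset (mgcv 1.9.3) with and without the block, and each library left out. The fits were tested on simulated counts with known changes, and no value from those runs is given or used here. With 3 libraries a group, an exact permutation test cannot go below p = 0.1. Totals were 14117150 to 15282307 counts per library.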

Additional observations from a re-analysis of the deposited data

How the results depend on the processing

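With 3 libraries a group, 1 cell line and 1 siRNA per group, differences are those of this line and siRNA, and FOSB had only 7 to 15 counts in each library. Genes with an adjusted p under 0.05 numbered 1 by edgeR, 38 by DESeq2, 100 with no filter, 47 by limma-voom, and 1 to 24 with each library left out (24 without siHOXA3 replicate 2). Genes with an unadjusted p under 0.05 numbered 1053, and 1862 with no filter, 2206 by limma-voom, and 643 (without siControl replicate 2) to 1828 (without siHOXA3 replicate 2). Genes higher in every siHOXA3 library numbered 1061, and 2038 with no filter, 1290 with upper-quartile normalization and 1699 to 2313 with each library left out. Genes lower in every siHOXA3 library numbered 1139, 915 with upper-quartile normalization, and 1708 to 2425 with each library left out, where fewer samples make separation easier. The median log2 fold change of the 10 genes was 0.15, and 0.087 (without siControl replicate 3) to 0.34 (without siControl replicate 2). Of 149 values of single genes among the 10, 147 moved by less than the spread between replicates, and FOSB moved to 0.24 and 0.64 without siControl replicates 1 and 2. Of 18 other named genes, 261 values kept both direction and call. MCL1 (-0.03) turned to 0.044 with the GC and length offset, to 0.040 with the block and that offset, and ranged from -0.064 to 0.015 with each library left out. MT2A passed with DESeq2, limma-voom, the block and the block with the offset, and its adjusted p over all alternatives ranged from 0.0019 to 0.761. IER5L and VIM passed with no filter (adjusted p = 0.0435 and 0.0165). Apart from the alternative's own construction, the cause was not tested. Same-numbered replicates shared only a number, with deviations correlating at 0.176, 0.118 and -0.084. A replicate block gave 4 genes with an adjusted p under 0.05, and the block with the GC and length offset gave 4. Counts of separate groups could not be given for the block and limma-voom, which have no normalized values of their own.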
